A study of Homo sapiens with 4 samples.

Results

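The HOX genes form 4 clusters, HOXA, HOXB, HOXC and HOXD, and their protein-coding members were followed here in PC3 and DU145, established human prostate cancer cell lines. Members were all rows of the deposited gene table whose name is HOX, a cluster letter and a paralog number, without antisense or readthrough transcripts. These were 36 of 35211 listed genes, 11 in HOXA, 9 in HOXB, 9 in HOXC and 7 in HOXD. HOXB1, HOXD12 and HOXD13 had no row and are missing from all counts and sums. The groups were PC3 cells transfected with a circ0003553 overexpression plasmid, PC3 cells with a negative control plasmid, DU145 cells with the circ0003553 plasmid and DU145 cells with the control plasmid. Each group held 1 library of rRNA-depleted total RNA. Nothing in the labels gives the promoter of the plasmid, the time after transfection or whether the libraries came from separate cultures. The p-values thus speak for these libraries alone, and they rest mostly on the spread of other genes.

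HOX proteins are homeodomain transcription factors that give cells a position along the body axis. Genes with low paralog numbers act in anterior tissues and those with high numbers in posterior and urogenital tissues, and the order of the genes in a cluster follows the order of their domains. The prostate derives from the urogenital sinus, where posterior paralogs are active, and HOXB13 is the member best known as a marker of the prostate epithelium. Polycomb complexes keep HOX genes silent outside their domains, and KMT2A complexes keep them active inside them. Which of them stay active is thus part of the identity of a cell line.

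Library totals ranged from 33438509 to 39488890 counts, and 3 counts, taken as the floor of detection per library, stood for 0.076 to 0.0897 CPM (counts scaled to a common library total). The epithelial markers were present in every library and all 5 were lower in PC3, with a summed level of 1190 CPM in PC3 circ0003553 and 1216 in PC3 control cells, against 5199 in DU145 circ0003553 and 4561 in DU145 control cells. The leukocyte marker PTPRC had at most 2 counts. The 2 leukocyte markers present in the data summed to 0.43 and 0.837 CPM in PC3 circ0003553 and PC3 control cells. In DU145 circ0003553 and DU145 control cells they summed to 0.0549 and 0.21 CPM. The 1 tested among them was called higher in PC3 (log2 fold change 2.25). CTNNA1, known to be lost in PC3, had 212 and 139 counts in PC3 circ0003553 and PC3 control cells, against 15131 and 15074 in DU145 circ0003553 and DU145 control cells. RCAN3, for which the plasmid is named in the sample titles, had 3798 counts in PC3 circ0003553 against 1212 in PC3 control cells, and 816 in DU145 circ0003553 against 639 in DU145 control cells. Some markers of other cell types also differed between the lines. PECAM1, an endothelial marker, had 595 and 585 counts in PC3 circ0003553 and PC3 control cells, against 14 and 10 in DU145 circ0003553 and DU145 control cells. The other endothelial markers, CDH5 and VWF, had at most 14 counts in any library, and the 3 markers summed to 15.1 and 17.6 CPM in PC3 circ0003553 and PC3 control cells, against 0.878 and 0.473 in DU145 circ0003553 and DU145 control cells. The 5 markers of fibroblasts and smooth muscle summed to 43 and 38.9 CPM in PC3 circ0003553 and PC3 control cells, against 8.23 and 10.2 in DU145 circ0003553 and DU145 control cells, and COL1A1 made up most of this sum in PC3. COL1A2 had at most 10 counts and DCN at most 2, and ACTA2 and MYH11 were not called. The part of these differences in the HOX results was not tested.

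In levels per length (RPKM, counts scaled by gene length and library total), PC3 was led by HOXB13 and DU145 by HOXB7. HOXB13 stood at 32.5 RPKM in PC3 circ0003553 and 36.3 in PC3 control cells, against 0.0158 in DU145 circ0003553 and 0 in DU145 control cells. HOXB7 stood at 3.23 RPKM in PC3 circ0003553 and 3.15 in PC3 control cells, against 69.4 in DU145 circ0003553 and 53.2 in DU145 control cells. HOXB6 and HOXB9 were among the 5 highest members in all 4 libraries. The number of members with at least 1 RPKM was 19 in PC3 circ0003553 and 20 in PC3 control cells, against 18 in both DU145 libraries. No HOXD gene reached 1 RPKM in any library.

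The clusters and the paralog numbers divided the HOX signal differently in the lines. HOXB took 57.1% of the summed HOX RPKM in PC3 circ0003553 and 59.3% in PC3 control cells, against 74.7% in DU145 circ0003553 and 68.1% in DU145 control cells. HOXA took 26.9% and 24.63% in PC3 circ0003553 and PC3 control cells, against 8.99% and 10.5% in DU145 circ0003553 and DU145 control cells. Posterior genes, numbers 9 to 13, held 59.9% of the HOX RPKM in PC3 circ0003553 and 60.8% in PC3 control cells, against 20.8% in DU145 circ0003553 and 23.3% in DU145 control cells. Paralog number 13 alone held 31.1% and 35.8% in PC3 circ0003553 and PC3 control cells, against 0.469% and 0.468% in DU145 circ0003553 and DU145 control cells. Paralog number 7 held 3.75% and 3.81% in PC3 circ0003553 and PC3 control cells, against 45.9% and 41.7% in DU145 circ0003553 and DU145 control cells. The HOXB, posterior, number 13 and number 7 shares rest mostly on HOXB13 and HOXB7. HOXA itself summed to 30 and 26.6 RPKM in PC3 circ0003553 and PC3 control cells, against 13.66 and 13.55 in DU145 circ0003553 and DU145 control cells. Without HOXB13 the posterior genes summed to 34.3 RPKM in PC3 circ0003553 and 29.5 in PC3 control cells, against 31.6 in DU145 circ0003553 and 29.9 in DU145 control cells.

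**Figure D1:**
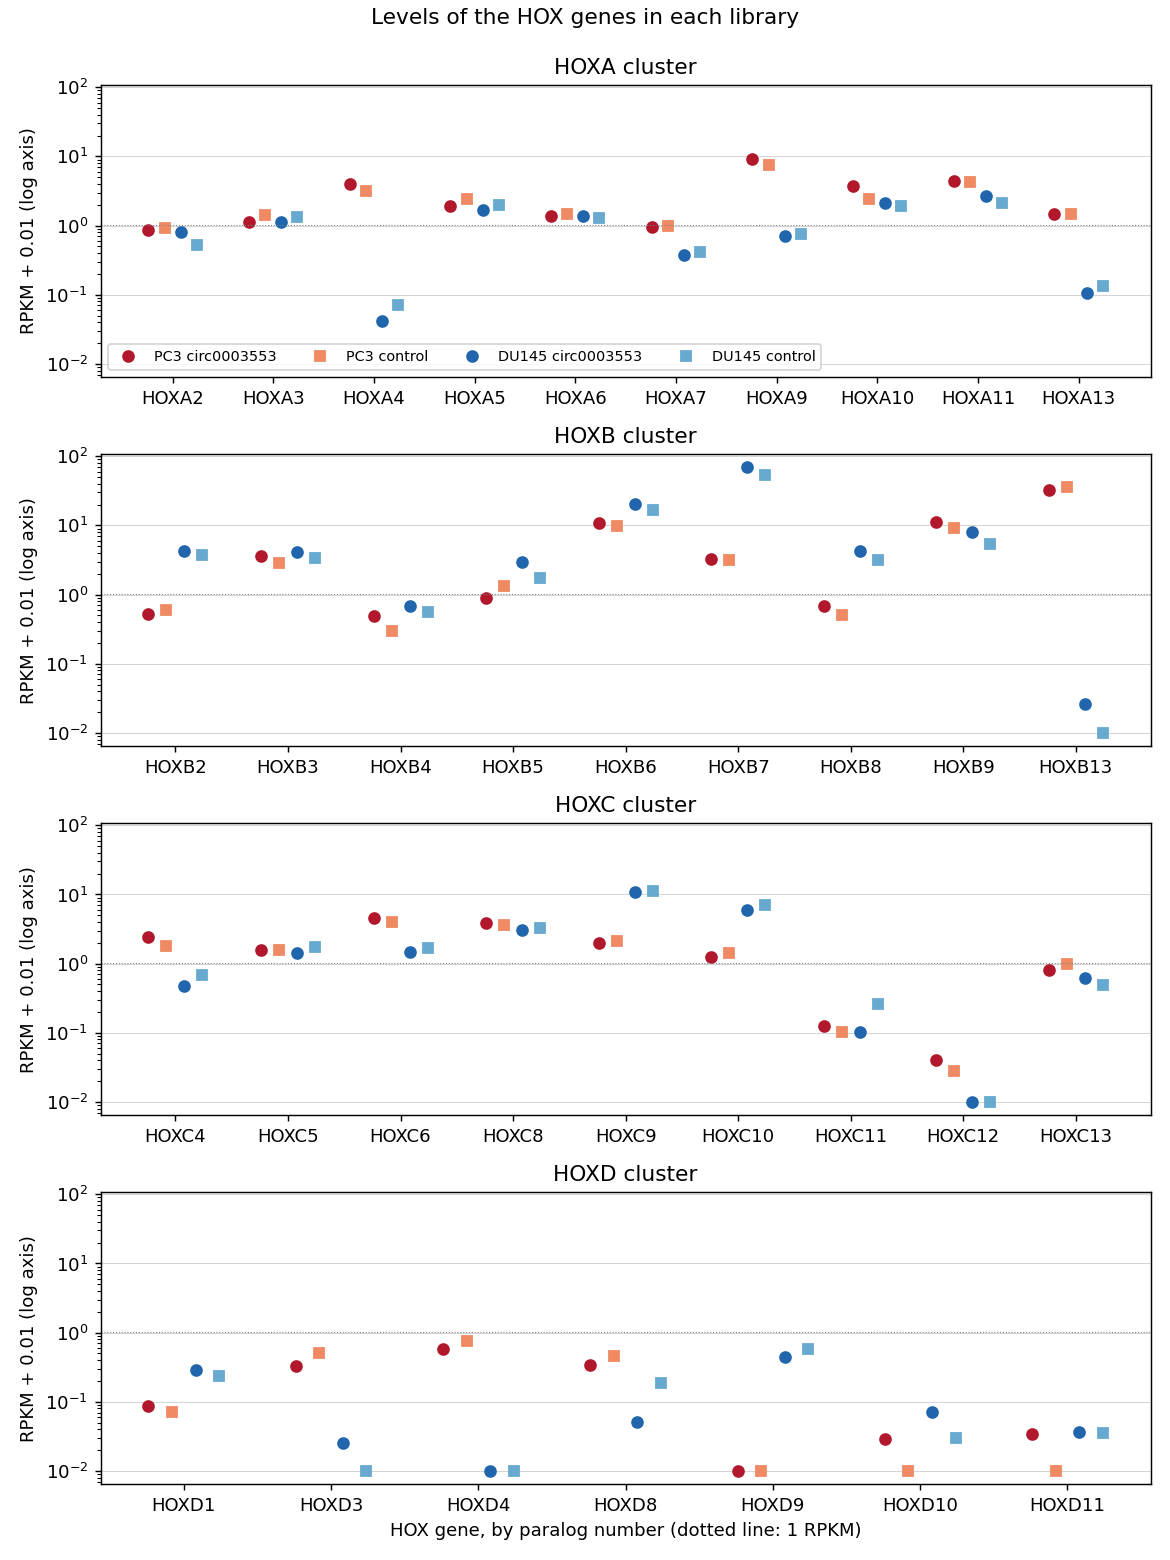
Level of the HOX genes shown in RPKM plus 0.01 on a log axis, by cluster and paralog number, with 1 point per library (red and orange for PC3, blue for DU145; circles for circ0003553 and squares for control). Points of the same line lie close together, and HOXA4, HOXA9, HOXA13, HOXB7, HOXB13, HOXD3, HOXD4 and HOXD9 stand far apart between the lines.

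Across the 36 members the libraries of the same line were nearly alike. The Pearson correlation of log2(RPKM + 0.1) was 0.99 between the PC3 libraries and 0.989 between the DU145 libraries, and between 0.44 and 0.451 for the 4 pairings of a PC3 with a DU145 library. These describe the same genes in 4 libraries and carry no test.

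The first comparison asked how HOX expression differed between PC3 and DU145, with plasmid as a block and 2 libraries per line. Of the 36 members, 33 passed the low-count filter, and 24 of these were called by edgeR (quasi-likelihood test, p adjusted after Benjamini and Hochberg over 21731 genes). That is 72.7% of the members tested, beside 66.0% of all genes tested, so the count by itself sets the HOX genes little apart. Higher in PC3 were 14 members (42.4%, beside 33.1% of all genes) and lower 10 (30.3%, beside 32.9%). The sizes were larger than usual in this comparison. The median size of the fitted log2 fold change was 1.50 for the members and 0.75 for all genes, and 12 of 33 members were called and at least 4-fold apart (36.4%, beside 18.5% of all genes). The members passed the filter by their level in at least 1 line, so these shares are descriptions, and the genes at 0 in a line stay above that median at their bounds. With 1 residual degree of freedom and a prior of 13.4, the standard errors (SE) rest mostly on the spread of other genes.

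**Figure D2:**
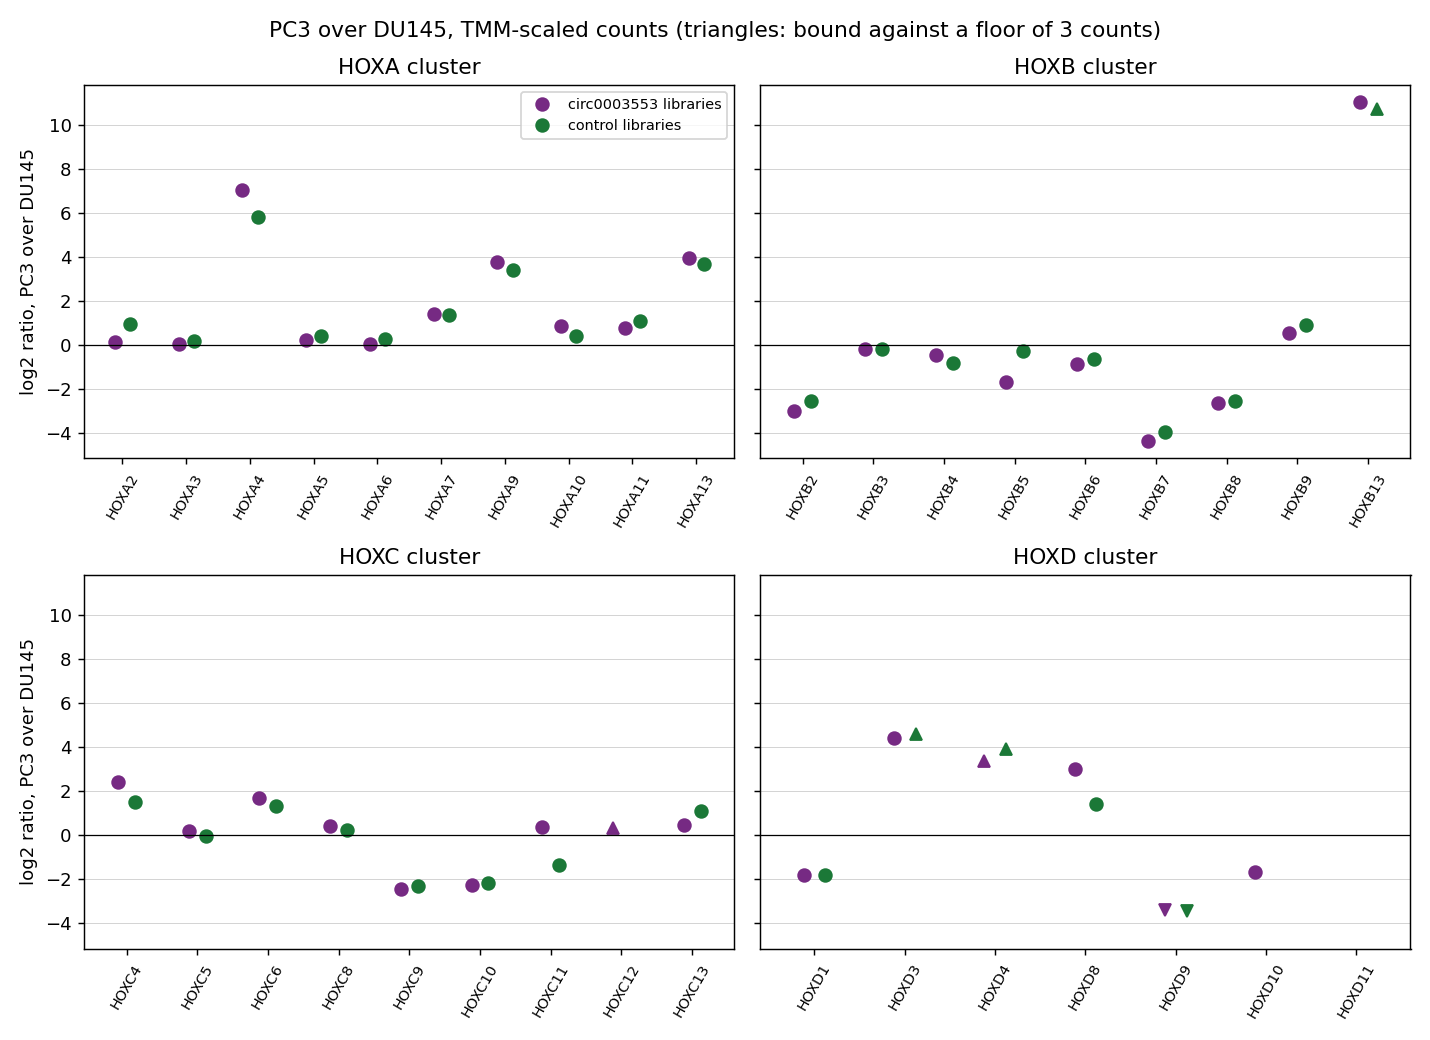
Log2 ratio of TMM-scaled counts, PC3 over DU145, for the HOX genes shown by cluster and paralog number, once for the circ0003553 libraries (purple) and once for the control libraries (green); triangles are bounds against a floor of 3 counts. HOXA9 to HOXA13 lie above 0, HOXB2 to HOXB8 below 0 and HOXB13 above 10, and the ratios of the plasmids lie close together for most genes.

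HOXB13 was the member furthest apart between the lines. It lies on the minus strand of chromosome 17 (hg38, chr17:48724763-48729178) and shares no exon base with another listed gene. HOXB13 had 4442 counts in PC3 circ0003553 and 4206 in PC3 control cells, against 2 in DU145 circ0003553 and 0 in DU145 control cells. The lines did not overlap, and both DU145 values were under the floor. The ratio of PC3 to DU145 was 2106 in circ0003553 cells, where it rests on 2 counts in DU145 and has a 95% interval of 378 to 83220 from halved counts, and at least 1715 in control cells against the floor (adjusted p = 2.17e-14). Read pairs appear to have been counted as 2 in these files, so all intervals here come from halved counts and cover counting error only. In bulk RNA, fewer cells that express a gene and less RNA per cell cannot be told apart.

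The difference at HOXB13 extended to its neighbours. PRAC1 and PRAC2 are small genes next to HOXB13, known for expression in prostate and distal bowel. Of 3 tested markers of prostate luminal cells, 1 was higher in PC3 and 2 were lower (median log2 fold change -0.71). PRAC1 had 354 counts in PC3 circ0003553 and 269 in PC3 control cells, and 0 in both DU145 libraries. PRAC2 had 344 counts in PC3 circ0003553 and 374 in PC3 control cells, and 0 in both DU145 libraries. The ratio was at least 109.7 for PRAC1 and at least 108.7 for PRAC2 in either plasmid pair. Of the 7 listed genes from PRAC1 to CTD-2377D24.4, HOXB13 included, none had more than 2 counts in a DU145 library. TTLL6, which starts 33056 bases beyond HOXB13, had 114 and 83 counts in PC3 circ0003553 and PC3 control cells, against 12 and 10 in DU145 circ0003553 and DU145 control cells (log2 fold change 3.24 ± 0.37 SE, adjusted p = 2.35e-06). CALCOCO2, the flanking gene after it, was much closer between the lines, at 10064 and 8376 counts in PC3 circ0003553 and PC3 control cells, against 7523 and 7382 in DU145 circ0003553 and DU145 control cells.

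HOXB9 lies 98406 bases away from HOXB13, and the genes from HOXB2 to HOXB9 mostly went the other way. Of HOXB2 to HOXB9, 5 of 8 genes were lower in PC3, 1 was higher and 2 were not called. The shares over all genes tested were 32.9% lower and 33.1% higher. HOXB7, a central paralog, had 195 counts in PC3 circ0003553 and 161 in PC3 control cells, against 3867 in DU145 circ0003553 and 3093 in DU145 control cells. It was 20.9-fold higher in DU145 among circ0003553 cells and 15.7-fold among control cells (log2 fold change -4.19 ± 0.14 SE, adjusted p = 1.87e-12). HOXB8, its neighbour, had 54 and 34 counts in PC3 circ0003553 and PC3 control cells, against 315 and 243 in DU145 circ0003553 and DU145 control cells (-2.59 ± 0.23, adjusted p = 1.28e-07). Neither HOXB7 nor HOXB8 shares an exon base with another listed gene.

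HOXB2, a hindbrain patterning gene near the anterior end of the cluster, had 47 and 46 counts in PC3 circ0003553 and PC3 control cells, against 358 and 327 in DU145 circ0003553 and DU145 control cells. Its log2 fold change was -2.78 ± 0.22 (adjusted p = 4.3e-08), so the steepest differences in HOXB lay at HOXB2, HOXB7, HOXB8 and HOXB13 and not along a gradient. HOXB6 had 1096 and 864 counts in PC3 circ0003553 and PC3 control cells, against 1908 and 1639 in DU145 circ0003553 and DU145 control cells (-0.76 ± 0.11, adjusted p = 2.75e-05). HOXB5 had 70 and 90 counts in PC3 circ0003553 and PC3 control cells, against 216 and 135 in DU145 circ0003553 and DU145 control cells. HOXB5 (-1.02 ± 0.29, adjusted p = 0.00595) lost its call with DESeq2, without the PC3 circ0003553 library and without the DU145 circ0003553 library.

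HOXB9 was the member of this run that was higher in PC3. It had 1143 and 803 counts in PC3 circ0003553 and PC3 control cells, against 743 and 526 in DU145 circ0003553 and DU145 control cells (0.72 ± 0.13, adjusted p = 0.000156). The lowest PC3 value was close to the highest DU145 value, and the call was lost without the PC3 circ0003553 library. HOXB3 (-0.18 ± 0.11) and HOXB4 (-0.61 ± 0.28) were not called, at adjusted p = 0.181 and 0.0674. HOXB3 had 1049 and 702 counts in PC3 circ0003553 and PC3 control cells, against 1132 and 964 in DU145 circ0003553 and DU145 control cells. The antisense transcripts of the run, HOXB-AS1 and HOXB-AS3, were lower in PC3 as well, at log2 fold changes of -1.19 ± 0.15 and -0.96 ± 0.12 (adjusted p = 6.68e-06 and 4.97e-06). They overlap exons of HOXB2, HOXB3, HOXB5 and HOXB6, and the strand setting of the counting is not given in the sources used here, so reads of genes that overlap on opposite strands cannot be told apart.

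**Figure D3:**
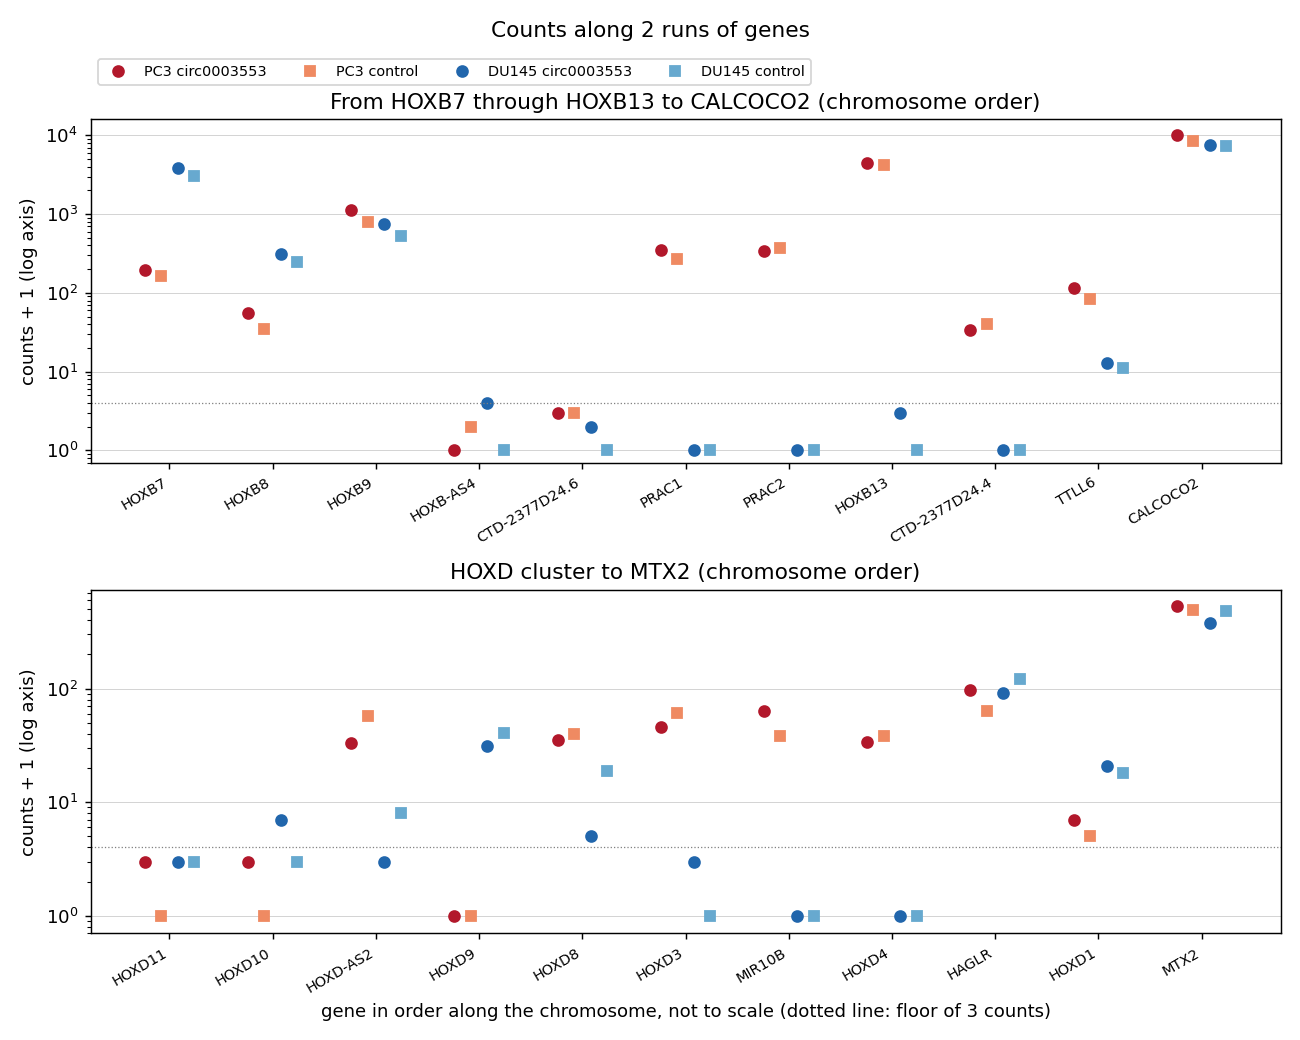
Counts plus 1 on a log axis for genes in chromosome order, from HOXB7 through HOXB13 to CALCOCO2 (upper) and across the HOXD cluster to MTX2 (lower), with 1 point per library (red and orange for PC3, blue for DU145; circles for circ0003553 and squares for control). PRAC1, PRAC2 and HOXB13 are at 0 to 2 counts in DU145, while the HOXD3, MIR10B and HOXD4 points of DU145 lie under the dotted floor and the HOXD9 points of PC3 lie at 0.

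The HOXA cluster on chromosome 7 was higher in PC3 at its posterior end and at 2 genes before it. Of 11 HOXA genes 6 were higher in PC3, beside 33.1% of all genes tested. HOXA9 to HOXA13 were all 4 higher. HOXA9, a posterior paralog known as a driver in leukaemia, had 1109 and 758 counts in PC3 circ0003553 and PC3 control cells, against 77 and 87 in DU145 circ0003553 and DU145 control cells. The lines did not overlap, with a log2 fold change of 3.59 ± 0.16 (adjusted p = 9.07e-11). HOXA13, which patterns the genital tract and distal limb, had 291 and 252 counts in PC3 circ0003553 and PC3 control cells, against 18 and 24 in DU145 circ0003553 and DU145 control cells (3.79 ± 0.26, adjusted p = 9.15e-09).

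HOXA10 and HOXA11, which act in the developing reproductive tract, differed less than the genes on either side. HOXA10 had 552 and 296 counts in PC3 circ0003553 and PC3 control cells, against 284 and 270 in DU145 circ0003553 and DU145 control cells (0.66 ± 0.16, adjusted p = 0.00212). The PC3 control and DU145 values were close, and the call was lost without the PC3 circ0003553 library and with DESeq2. HOXA11 had 406 and 323 counts in PC3 circ0003553 and PC3 control cells, against 226 and 187 in DU145 circ0003553 and DU145 control cells (0.92 ± 0.17, adjusted p = 0.000189).

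HOXA4, in the middle of the cluster, was nearly absent from DU145. It had 276 counts in PC3 circ0003553 and 182 in PC3 control cells, against 2 in DU145 circ0003553 and 4 in DU145 control cells (6.27 ± 0.41, adjusted p = 3.93e-09). Its neighbours HOXA3 (0.12 ± 0.18), HOXA5 (0.32 ± 0.22) and HOXA6 (0.16 ± 0.28) were not called, at adjusted p = 0.578, 0.21 and 0.643, and neither was HOXA2 (0.50 ± 0.29, adjusted p = 0.142), which gained a call without the DU145 circ0003553 library. HOXA4 shares 47.3% of its exon bases with other listed genes, among them RP1-170O19.22 on the same strand, which had 258 and 161 counts in PC3 circ0003553 and PC3 control cells and 3 in both DU145 libraries. HOXA7 was higher in PC3, with 90 and 78 counts in PC3 circ0003553 and PC3 control cells, against 32 and 37 in DU145 circ0003553 and DU145 control cells (1.39 ± 0.30, adjusted p = 0.00093), a call lost with DESeq2. HOXA7 shares 62.5% of its exon bases with HOXA-AS3 on the other strand.

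Other transcripts of the HOXA cluster were higher in PC3 too. HOTTIP, a noncoding RNA at the posterior end of HOXA that is known to bring WDR5 to posterior HOXA genes, had 78 and 56 counts in PC3 circ0003553 and PC3 control cells, against 2 and 6 in DU145 circ0003553 and DU145 control cells (4.12 ± 0.52, adjusted p = 5.86e-06). HOXA10-AS, HOXA11-AS and HOXA-AS3 were higher at log2 fold changes of 1.94 ± 0.18, 1.07 ± 0.16 and 1.06 ± 0.21 (adjusted p = 2.09e-07, 2.83e-05 and 0.000347). HOXA10-AS overlaps exons of HOXA9 and HOXA10, HOXA11-AS those of HOXA11, and HOXA-AS3 those of HOXA3, HOXA4, HOXA6 and HOXA7. The readthrough HOXA10-HOXA9 had 659 and 430 counts in PC3 circ0003553 and PC3 control cells, against 22 and 25 in DU145 circ0003553 and DU145 control cells. All of its exon bases (100%) lie in exons of other listed genes, so reads in shared exons appear to have been counted for more than 1 gene. Over all members, 12 of 36 share no exon base with another listed gene and 5 share more than 50% of theirs.

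The promoter windows of the HOXA genes furthest apart between the lines are shown, with CpG dinucleotides in capitals. Each holds 250 bases before and 50 after a RefSeq start (GRCh38.p14), on the minus strand, at chr7:27130708-27131007 for HOXA4, chr7:27165488-27165787 for HOXA9 and chr7:27200042-27200341 for HOXA13.
HOXA4: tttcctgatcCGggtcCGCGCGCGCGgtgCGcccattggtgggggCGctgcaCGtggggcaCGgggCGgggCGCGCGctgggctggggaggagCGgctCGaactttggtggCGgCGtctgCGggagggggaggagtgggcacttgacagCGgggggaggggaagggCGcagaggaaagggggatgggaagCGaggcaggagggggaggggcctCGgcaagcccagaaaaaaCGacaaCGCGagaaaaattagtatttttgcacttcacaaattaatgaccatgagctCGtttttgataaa
HOXA9: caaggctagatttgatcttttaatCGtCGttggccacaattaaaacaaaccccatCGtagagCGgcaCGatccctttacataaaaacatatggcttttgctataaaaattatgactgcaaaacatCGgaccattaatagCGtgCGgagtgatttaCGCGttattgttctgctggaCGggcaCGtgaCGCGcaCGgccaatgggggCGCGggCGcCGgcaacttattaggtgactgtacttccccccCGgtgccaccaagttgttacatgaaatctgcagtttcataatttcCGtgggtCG
HOXA13: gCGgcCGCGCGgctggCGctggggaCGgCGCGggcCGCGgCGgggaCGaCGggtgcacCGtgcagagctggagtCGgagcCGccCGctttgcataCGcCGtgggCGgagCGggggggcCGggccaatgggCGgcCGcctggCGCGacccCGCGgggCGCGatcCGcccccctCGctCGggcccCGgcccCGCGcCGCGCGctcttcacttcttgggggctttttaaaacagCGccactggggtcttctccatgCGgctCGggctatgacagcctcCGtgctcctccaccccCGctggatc
The windows hold 27, 22 and 44 CpG dinucleotides for HOXA4, HOXA9 and HOXA13, and 28.2%, 37.7% and 4.19% of all 35116 RefSeq promoter windows hold as many or more. The TATA box letters TATAAA, searched on both strands, occur in the HOXA9 window and not in the HOXA4 and HOXA13 windows, beside 11.5% of all windows. The GC box letters GGGCGG, also on both strands, occur in HOXA4 and HOXA13 and in 45% of all windows. Windows were found for 17 of the 36 members, with 24 windows in all and a median of 22.5 CpG dinucleotides, beside 14 over all windows.

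The HOXC cluster on chromosome 12 was split inside. Of 8 tested genes, 3 were higher in PC3, 2 were lower and 3 were not called. Over all genes tested, 33.1% were higher and 32.9% lower, so these counts set HOXC little apart. HOXC9 and HOXC10, which specify thoracic and lumbar motor neurons in mouse, were the lower genes. HOXC9 had 129 and 120 counts in PC3 circ0003553 and PC3 control cells, against 667 and 724 in DU145 circ0003553 and DU145 control cells (-2.37 ± 0.16, adjusted p = 5.28e-09). HOXC10 had 113 and 112 counts in PC3 circ0003553 and PC3 control cells, against 508 and 620 in DU145 circ0003553 and DU145 control cells (-2.21 ± 0.17, adjusted p = 2.01e-08). The lines did not overlap in either gene.

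HOXC6, studied in prostate cancer as a tumour marker, and HOXC4 were higher in PC3. HOXC6 had 630 and 470 counts in PC3 circ0003553 and PC3 control cells, against 188 and 228 in DU145 circ0003553 and DU145 control cells (1.50 ± 0.16, adjusted p = 7.45e-07). HOXC4 had 258 and 161 counts in PC3 circ0003553 and PC3 control cells, against 46 and 70 in DU145 circ0003553 and DU145 control cells (1.93 ± 0.26, adjusted p = 9.21e-06). HOXC4 shares 17.8% of its exon bases with HOXC6 and RP11-834C11.14, and HOXC6 shares 15.7% with HOXC4, RP11-834C11.14, HOXC9 and HOXC-AS2. HOXC8, which lies between HOXC9 and HOXC4 and shares no exon base, had 291 and 230 counts in PC3 circ0003553 and PC3 control cells, against 207 and 237 in DU145 circ0003553 and DU145 control cells (0.33 ± 0.17, adjusted p = 0.0996). HOXC5 (0.07 ± 0.23) was not called either, at adjusted p = 0.813. It shares 59.9% of its exon bases with RP11-834C11.12 and RP11-834C11.14 on the same strand.

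The posterior end of HOXC was low in both lines. HOXC13 had 77 and 78 counts in PC3 circ0003553 and PC3 control cells, against 53 and 44 in DU145 circ0003553 and DU145 control cells (0.78 ± 0.30, adjusted p = 0.0323). HOXC13 was no longer called with DESeq2, limma-voom, scaling by library totals, no filter on low counts and without any of 3 libraries (PC3 circ0003553, PC3 control or DU145 control). HOXC11 had 10 to 31 counts per library (adjusted p = 0.356), and HOXC12 had 4, 2, 0 and 0 counts in PC3 circ0003553, PC3 control, DU145 circ0003553 and DU145 control cells and was not tested. HOXC-AS3 and HOXC-AS2, antisense to HOXC10 and HOXC9, were lower in PC3 like those genes, at log2 fold changes of -3.75 ± 0.54 and -1.45 ± 0.23 (adjusted p = 2.2e-05 and 5.85e-05). HOTAIR, the noncoding RNA between HOXC11 and HOXC12, was not called (0.46 ± 0.28, adjusted p = 0.163).

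The HOXD cluster on chromosome 2 held few counts, and its genes differed between the lines in both directions. Of 5 tested genes 3 were higher in PC3 and 2 lower, beside 33.1% and 32.9% of all genes tested. HOXD4, a retinoic acid responsive hindbrain gene, had 33 and 37 counts in PC3 circ0003553 and PC3 control cells, and 0 in both DU145 libraries. Against the floor the ratio was at least 10.4 in circ0003553 cells and at least 15.08 in control cells (adjusted p = 2.49e-05). HOXD3 had 45 and 60 counts in PC3 circ0003553 and PC3 control cells, against 2 and 0 in DU145 circ0003553 and DU145 control cells. Its ratio was 21.3 in circ0003553 cells (95% interval 3.54 to 898) and at least 24.46 in control cells against the floor (adjusted p = 5.57e-06). The circ0003553 ratio rests on 2 counts in DU145. HOXD8 had 34 and 39 counts in PC3 circ0003553 and PC3 control cells, against 4 and 18 in DU145 circ0003553 and DU145 control cells. The call of HOXD8 (1.88 ± 0.49, adjusted p = 0.00328) was lost with DESeq2, without the PC3 control library and without the DU145 circ0003553 library.

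HOXD9, known from limb patterning and next to HOXD8, was lower in PC3. It had 0 counts in both PC3 libraries, against 30 in DU145 circ0003553 and 40 in DU145 control cells. The ratio of PC3 to DU145 was thus at most 0.09482 in circ0003553 cells and at most 0.09173 in control cells (adjusted p = 4.36e-05). HOXD8 and HOXD9 share no exon base with another listed gene. HOXD1 had 6 and 4 counts in PC3 circ0003553 and PC3 control cells, against 20 and 17 in DU145 circ0003553 and DU145 control cells (-1.78 ± 0.64, adjusted p = 0.0244). Its call was lost with DESeq2, with no filter on low counts and without any of 3 libraries (PC3 circ0003553, PC3 control or DU145 circ0003553). HOXD1 shares 57.4% of its exon bases with HAGLR and RP11-387A1.6 on the other strand. HAGLR had 96 and 63 counts in PC3 circ0003553 and PC3 control cells, against 90 and 120 in DU145 circ0003553 and DU145 control cells. HOXD10 and HOXD11 had at most 6 counts in any library and were not tested.

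MIR10B, the gene of a microRNA that lies 809 bases before HOXD4, followed HOXD3 and HOXD4. Its row covers the hairpin at chr2:176150303-176150412, and it had 63 and 37 counts in PC3 circ0003553 and PC3 control cells and 0 in both DU145 libraries. The ratio was at least 19.9 in circ0003553 cells and at least 15.08 in control cells. The libraries were made from total RNA and not as small RNA libraries, so the row is not read as the mature microRNA. The hairpin is shown with its 3p arm, hsa-miR-10b-3p, in capitals, and this arm is then shown with its seed, bases 2 to 8, in capitals. The HOXD4 promoter window of RefSeq, on the plus strand at chr2:176151300-176151599, follows with CpG dinucleotides in capitals.
MIR10B hairpin: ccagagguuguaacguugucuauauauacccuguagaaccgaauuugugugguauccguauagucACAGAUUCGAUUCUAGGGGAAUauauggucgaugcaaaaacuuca
hsa-miR-10b-3p: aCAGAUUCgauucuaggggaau
HOXD4: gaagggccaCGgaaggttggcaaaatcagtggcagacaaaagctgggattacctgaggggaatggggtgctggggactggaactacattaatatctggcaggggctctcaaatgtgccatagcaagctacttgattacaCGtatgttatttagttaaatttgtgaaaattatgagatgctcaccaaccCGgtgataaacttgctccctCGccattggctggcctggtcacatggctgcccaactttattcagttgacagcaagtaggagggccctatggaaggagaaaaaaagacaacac
The HOXD4 window holds 4 CpG dinucleotides, and 75.5% of all windows hold as many or more. HOXD4 shares 80.5% and HOXD3 73.0% of their exon bases with other listed genes, mainly AC009336.19 on the same strand, which had 46 and 45 counts in PC3 circ0003553 and PC3 control cells, against 2 and 0 in DU145 circ0003553 and DU145 control cells. In the shared bases, HOXD3 or HOXD4 can therefore not be told apart from these other genes. HOXD3 and HOXD4 share no exon base with each other. HOXD-AS2 was also higher in PC3 (3.43 ± 0.54, adjusted p = 4.94e-05). It runs on the other strand across HOXD8 and HOXD9, of which HOXD9 was lower in PC3, and overlaps exons of HOXD3.

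By paralog number, the groups did not move as blocks. All 3 tested genes of number 13 were higher in PC3, among them HOXC13 with its fragile call. Of number 4, HOXA4, HOXC4 and HOXD4 were higher and HOXB4 was not called. Of number 9, HOXA9 and HOXB9 were higher and HOXC9 and HOXD9 lower. Of the 15 central genes, numbers 4 to 8, 6 were higher, 4 lower and 5 not called. Beside them stand 33.1% higher and 32.9% lower over all genes tested.

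The second comparison asked whether the circ0003553 plasmid changed HOX expression, with cell line as a block and 2 libraries per plasmid. None of the 33 tested members was called by edgeR's quasi-likelihood test (0.00%, beside 0.465% of all genes), and none by DESeq2 or limma-voom. At an unadjusted p under 0.05 there were 5 members by edgeR (15.2%, beside 8.88% of all genes), 0 by DESeq2 and 5 by limma-voom. The median fitted log2 fold change was 0.02 for the members and 0.00 for all genes, and 17 of 33 members (51.5%) lay above 0, beside 50.5% of all genes. The same fit called 101 genes between the plasmids, and RCAN3 was among them (0.95 ± 0.16, adjusted p = 0.0148).

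The members with an unadjusted p under 0.05 by edgeR lay in HOXB and HOXA, with fitted log2 fold changes above 0 for circ0003553. HOXB9 had the lowest, with 1143 counts in PC3 circ0003553 against 803 in PC3 control cells and 743 in DU145 circ0003553 against 526 in DU145 control cells. Its TMM-scaled ratio was 1.19 in PC3 (95% interval 1.04 to 1.35) and 1.52 in DU145 (1.29 to 1.79), and the fit gave 0.42 ± 0.13 on the log2 scale (adjusted p = 0.283). HOXB3 had ratios of 1.24 (1.09 to 1.43) in PC3 and 1.26 (1.11 to 1.43) in DU145 (0.33 ± 0.11, adjusted p = 0.373). HOXA10 had 1.55 (1.27 to 1.91) in PC3 and 1.13 (0.886 to 1.44) in DU145 (0.42 ± 0.16, adjusted p = 0.45). HOXB7 and HOXB8 had adjusted p = 0.527 and 0.56.

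Of HOXB2 to HOXB9, all 8 had a fitted log2 fold change above 0, with a median of 0.30, while HOXB13 had -0.17 ± 0.16 (adjusted p = 0.848). These genes share the libraries and some share exons, and in PC3 HOXB2 and HOXB5 had ratios below 1, at 0.851 (0.470 to 1.61) and 0.648 (0.404 to 1.03). HOXB13 in PC3 had 4442 counts in circ0003553 against 4206 in control cells, which is a TMM-scaled ratio of 0.879 (0.828 to 0.934) because the circ0003553 library was deeper. In DU145 it was under the floor with either plasmid.

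**Figure D4:**
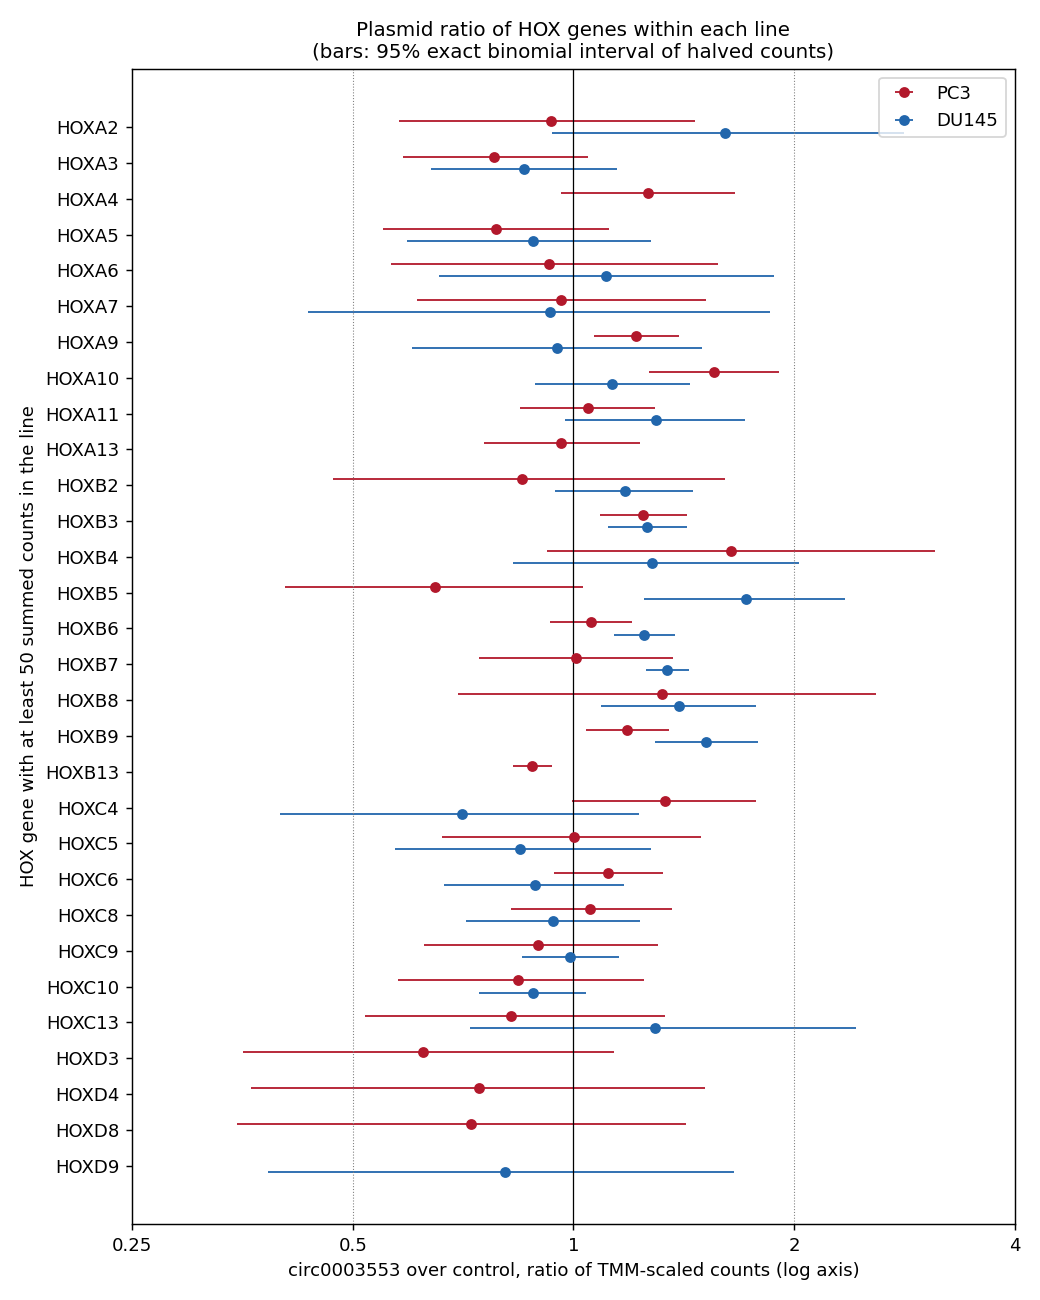
Ratio of TMM-scaled counts, circ0003553 over control, for the HOX genes shown, each with at least 50 summed counts in the line, in PC3 (red) and DU145 (blue) on a log axis; bars are 95% exact conditional binomial intervals of halved counts and dotted lines mark 2-fold. All points lie inside the dotted lines, and most intervals reach 1.

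Within a line there was 1 library per plasmid and so no test. Among members with at least 50 summed counts, 0 of 30 in PC3 and 0 of 25 in DU145 were 2-fold apart, beside 1.38% of all such genes in PC3 and 2.31% in DU145. At 1.5-fold there were 4 in PC3 (13.3%, beside 6.32%) and 3 in DU145 (beside 9.73%). Of 24 members with at least 50 counts in both lines, 14 lay on the same side of 1 in both, 8 above and 6 below. HOXB5 had the widest split, with a ratio of 0.648 in PC3 and 1.72 (1.25 to 2.35) in DU145. Whether plasmid effects differed between the lines could not be tested, since an interaction leaves no residual degrees of freedom.

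HOX proteins bind DNA with the TALE homeodomain cofactors PBX, MEIS and PKNOX, so these were set beside the members. Of 8 tested cofactor genes 4 were higher in PC3, 2 were lower and 2 were not called. Over all genes tested, 33.1% were called higher in PC3 and 32.9% lower. PBX3 had 424 and 449 counts in PC3 circ0003553 and PC3 control cells, against 1355 and 1372 in DU145 circ0003553 and DU145 control cells (-1.54 ± 0.13, adjusted p = 9.06e-08). PBX4 and MEIS1, the partner of HOXA9 in leukaemia, were higher in PC3, at 1.26 ± 0.20 and 1.10 ± 0.24 (adjusted p = 4.71e-05 and 0.00102).

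Among the regulators of HOX chromatin, calls went both ways. Of 27 Polycomb genes 10 were higher in PC3 and 12 lower. Of 13 genes of KMT2A-type complexes and H3K27 demethylases 5 were higher and 3 lower. These counts stand beside 33.1% higher and 32.9% lower over all genes tested. CBX2, a Polycomb subunit that reads H3K27 methylation, was the Polycomb gene furthest apart, with 1065 and 897 counts in PC3 circ0003553 and PC3 control cells, against 144 and 181 in DU145 circ0003553 and DU145 control cells (2.70 ± 0.14, adjusted p = 4.71e-10). EZH1 and RNF2, which write H3K27 methylation and H2A ubiquitination, were lower in PC3, at -1.64 ± 0.13 and -1.48 ± 0.16 (adjusted p = 2.46e-08 and 1.17e-06). PHC2, another Polycomb subunit, was higher (1.52 ± 0.11, adjusted p = 8.81e-09). KMT2A was higher in PC3 (0.85 ± 0.10, adjusted p = 2.06e-06) and its partner WDR5 lower (-0.86 ± 0.11, adjusted p = 7.38e-06). All 7 genes of chromosome architecture, CTCF and cohesin among them, were called, 3 higher and 4 lower, beside 66.0% of all genes tested.

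Retinoic acid induces HOX genes from the anterior end, and of 11 tested genes of its pathway 7 were higher in PC3 and 2 lower. The shares over all genes tested were 33.1% higher and 32.9% lower. CRABP2, which carries retinoic acid to its receptors, had 19170 and 16374 counts in PC3 circ0003553 and PC3 control cells, against 1861 and 2125 in DU145 circ0003553 and DU145 control cells (3.26 ± 0.10, adjusted p = 1.75e-12). RARB, a receptor and itself a target of retinoic acid, had 32 and 20 counts in PC3 circ0003553 and PC3 control cells, against 0 and 2 in DU145 circ0003553 and DU145 control cells. CYP26A1, which degrades it, had 0 and 2 counts in PC3 circ0003553 and PC3 control cells, against 16 and 20 in DU145 circ0003553 and DU145 control cells. CYP26B1, another degrading enzyme that was picked after its values were seen, went the other way, with 392 and 322 counts in PC3 circ0003553 and PC3 control cells, against 229 and 264 in DU145 circ0003553 and DU145 control cells (0.64 ± 0.16, adjusted p = 0.00235). Of the 7 anterior genes, numbers 1 to 3, 3 were lower in PC3, HOXB2 among them, 1 was higher and 3 were not called. HOXD4, named above as retinoic acid responsive, was higher in PC3. The link between HOX genes and the retinoic acid values was not tested.

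Homeobox genes outside the clusters also differed by line. Of 10 tested relatives 6 were higher in PC3 and 2 lower, beside 33.1% and 32.9% of all genes tested. DLX1, a forebrain and craniofacial gene also measured in urine tests for prostate cancer, had 1039 and 848 counts in PC3 circ0003553 and PC3 control cells, against 8 and 6 in DU145 circ0003553 and DU145 control cells (7.15 ± 0.25, adjusted p = 3.6e-12). DLX2 had 89 and 78 counts in PC3 circ0003553 and PC3 control cells and 2 in both DU145 libraries (adjusted p = 4.81e-07). DLX6 went the other way, with 0 counts in both PC3 libraries, against 30 in DU145 circ0003553 and 42 in DU145 control cells. None of the TALE, Polycomb, KMT2A-type, architecture, retinoic acid or homeobox relatives was called between the plasmids.

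Of 21 tested genes that flank the clusters, 9 were higher in PC3 and 5 lower, beside 33.1% and 32.9% of all genes tested. Their median log2 fold change was 0.23. TTLL6, given beside HOXB13, had the largest difference among them. MTX2, beyond HOXD1, had 535 and 488 counts in PC3 circ0003553 and PC3 control cells, against 375 and 477 in DU145 circ0003553 and DU145 control cells.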

How the data were processed

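Libraries, 4 in all, of rRNA-depleted total RNA of PC3 and DU145 cells were analysed, 1 per line and plasmid, with 33438509 to 39488890 counts each. The authors deposited whole-number read counts and RPKM per gene on hg38. Trimmomatic 0.36, Subread 1.5.1 with featureCounts and edgeR 3.12.1 are listed in the submitters' processing notes, without their roles. Per the labels, the library kit was stranded and carried molecular identifiers. The aligner, strand setting and identifier collapsing were not given in the sources used here. Low counts were mostly even (70.3% to 75.3% of counts from 1 to 20), as when both reads of a pair are counted, so intervals used halved counts.

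Counts were fitted with edgeR 4.0.16 in R 4.3.3 (TMM scaling, filterByExpr by line, quasi-likelihood test on plasmid and line, Benjamini-Hochberg adjustment over 21731 genes, threshold 0.05), after a test on simulated data. SE was taken as the absolute log2 fold change over the root of the F statistic. Within-line ratios are of TMM-scaled counts with exact conditional binomial 95% intervals, and bounds use 3 counts per library. DESeq2 1.42.0, limma-voom (limma 3.58.1), other scalings and filters and leaving out each library were alternatives. Levels of different genes were compared in the deposited RPKM only. The same plasmid in both lines carries no replicate number, so line or plasmid served as the block. HOX members and gene lists were chosen with earlier results of these data known. Members with the 10 highest and 10 lowest called log2 fold changes between lines were given in full, as were up to 4 called genes per list; CALCOCO2, MTX2, RCAN3 and the markers were named as flanking genes or checks. KLK2, KLK3 and members not listed in the table were not analysed here. Some genes entered the fits and counts but are not reported here by name.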

Additional observations from a re-analysis of the deposited data

How the results depend on the processing

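The 14 HOX genes called higher in PC3 and the 10 called lower numbered 10 to 14 and 8 to 10 under the other scalings, filters, tools and counting units. Among the 11 tested members that share no exon base with another gene they were 4 and 3, since fewer genes were tested. Leaving out each library in turn gave 11 to 14 higher and 8 to 10 lower, and HOXA2 was called higher only without the DU145 circ0003553 library. The fit with no replicate block (plasmid or line left out) gave 14 higher, 10 lower and 0 between plasmids, and changed no call. Over the 24 called genes, 294 values were recomputed: 272 kept direction and call, 22 lost the call and 0 reversed. Calls of 17 genes held in every setting that tested them; the other 7 are named beside their results. No setting that kept the line as a block called a HOX gene between plasmids. The leave-out fits and the fit with no block dropped the line, so differences between the lines entered their error. These fits can therefore not decide on the plasmid. With no minimum of counts, 3 members (HOXC11, HOXD10 and HOXD8) were 2-fold apart within DU145, as low counts then entered. At a level of 0.1 RPKM in place of 1, 31 members were counted in PC3 circ0003553, 30 in PC3 control, 26 in DU145 circ0003553 and 29 in DU145 control cells. At 10 RPKM the counts were 3 in PC3 circ0003553, 1 in PC3 control, 3 in DU145 circ0003553 and 3 in DU145 control cells. Of the 12 members sharing no exon base, 6 in each PC3 library and 5 in each DU145 library reached 1 RPKM. Depth limits the HOXD genes and HOXC12, where a count under 3 cannot be told from 0, and 1 library per line and plasmid leaves the plasmid comparison with 1 residual degree of freedom.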
